A study of Mus musculus with 87 samples.

Results

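Igf2r, Grb10 and Gpc3 are 3 mouse genes whose products restrain growth factor signalling, and their RNA was followed here through haploid embryonic stem cells, preimplantation embryos and organs before and just after birth. The genes were taken by symbol from 10 tables of read counts that list the same 25277 symbols each, and all 3 were found in every table. The study sequenced polyadenylated RNA of 87 libraries, and its title names semi-cloned mice made with androgenetic haploid stem cells that lack DNA methylation. The haploid cells, which carry a paternal genome only, came as 2 libraries of Dnmt STOP, 3 of Dnmt TKO and 3 of Dnmt WT genotype. The labels name 1 cell line, AG-haESC, and do not say how many clones stand behind each genotype.

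Embryos were collected as 4 pIR and 4 pWT libraries at the 2C stage, 4 pIR and 3 pWT libraries at the morula stage and 4 pIR and 4 pWT libraries at the blastocyst stage. Organs of embryos at stage E18.5 came in 2 labelled batches. In batch 1, brain, heart, kidney, liver and lung each had 2 pTKO and 2 pWT libraries. In batch 2, heart and liver each had 4 pIR and 4 pWT libraries. Newborn organs, labelled P1, had 2 pIR and 3 pWT libraries for each of heart, kidney, liver and lung. Strain, the prefix p, the letters IR and the STOP allele are not explained in the sources used here, and nothing says whether libraries of a group came from separate animals, so that each p measures only the spread between these libraries.

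Igf2r encodes the cation-independent mannose 6-phosphate receptor, which carries the growth factor IGF2 to lysosomes for degradation and also delivers newly made lysosomal enzymes. In the mouse it is expressed mainly from the maternal chromosome once the embryo has implanted, while the antisense RNA Airn is transcribed from the paternal copy and silences Igf2r in cis. Grb10 encodes an adaptor protein that binds the insulin and IGF1 receptors and damps their signal; it is maternally expressed in most tissues and paternally expressed in neurons. Gpc3, on the X chromosome, encodes glypican 3, a heparan sulfate proteoglycan of the cell surface that binds Hedgehog ligands and limits their signal, and mice without it are overgrown. The allele behind a read cannot be told from these counts.

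In the mm10 assembly, Igf2r spans chr17:12682406-12769664 on the minus strand, Grb10 spans chr11:11930508-12038683 on the minus strand and Gpc3 spans chrX:52272426-52613950 on the minus strand. Airn spans chr17:12741311-12860136 on the plus strand and starts 28395 bases inside Igf2r, yet the exons of the pair share 0 bases in the GENCODE M21 annotation. Genes annotated inside Gpc3 share 0 exon bases with it, and none of those counted exceeded 4 counts in a library. The promoters are shown because the study removed DNA methylation and because they differ in their CpG content, the letters that carry that mark. Each sequence holds the 250 bases before a start site in RefSeq's GRCm38.p6 annotation, 5′ to 3′ on the strand of the gene, with each CG in capitals; the Igf2r one lies at chr17:12769707-12769956, the Airn one at chr17:12741061-12741310, both Grb10 ones at chr11:12037421-12037670 and chr11:12027972-12028221, and the Gpc3 one at chrX:52613975-52614224.
Igf2r promoter: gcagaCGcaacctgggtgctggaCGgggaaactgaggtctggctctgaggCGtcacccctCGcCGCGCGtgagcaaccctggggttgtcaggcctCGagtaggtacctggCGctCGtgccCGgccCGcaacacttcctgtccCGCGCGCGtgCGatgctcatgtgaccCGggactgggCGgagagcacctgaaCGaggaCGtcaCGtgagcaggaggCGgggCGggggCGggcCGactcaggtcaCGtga
Airn promoter: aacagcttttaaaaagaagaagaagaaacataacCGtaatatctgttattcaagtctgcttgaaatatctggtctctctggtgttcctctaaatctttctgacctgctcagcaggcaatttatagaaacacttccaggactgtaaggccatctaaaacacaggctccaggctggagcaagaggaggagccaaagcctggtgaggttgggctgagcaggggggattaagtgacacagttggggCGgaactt
Grb10 promoter 1: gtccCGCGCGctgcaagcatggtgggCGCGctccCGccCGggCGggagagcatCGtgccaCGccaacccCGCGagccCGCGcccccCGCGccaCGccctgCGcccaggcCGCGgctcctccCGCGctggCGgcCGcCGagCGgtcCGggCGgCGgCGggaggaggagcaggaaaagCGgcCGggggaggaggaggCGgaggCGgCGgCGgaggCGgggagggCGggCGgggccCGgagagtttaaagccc
Grb10 promoter 2: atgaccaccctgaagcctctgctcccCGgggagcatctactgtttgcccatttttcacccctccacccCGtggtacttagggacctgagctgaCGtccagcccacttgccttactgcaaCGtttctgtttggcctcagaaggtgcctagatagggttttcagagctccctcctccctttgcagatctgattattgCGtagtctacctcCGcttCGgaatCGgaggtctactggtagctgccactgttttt
Gpc3 promoter: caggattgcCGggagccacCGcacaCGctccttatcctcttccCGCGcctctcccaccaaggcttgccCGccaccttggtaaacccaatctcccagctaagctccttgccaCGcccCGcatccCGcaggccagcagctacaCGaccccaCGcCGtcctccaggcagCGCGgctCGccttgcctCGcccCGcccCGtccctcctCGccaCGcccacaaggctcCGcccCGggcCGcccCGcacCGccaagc

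Upstream Grb10 promoter 1 held 40 CpG, which 1.31% of 32851 mouse promoter windows of this length reach, and Grb10 promoter 2 held 8, which 43% reach. The Igf2r window held 27 CpG (8.56% of windows have as many), the Gpc3 window 25 (10.7%) and the Airn window 2 (81.2%), against a median of 6 over all windows. Searching both strands, CACGTG, the E-box, occurred at 48 and 7 bases before the Igf2r start and in 6.02% of all windows. GGGCGG, the core of the GC box, occurred 3 times before Igf2r, 5 times before Grb10 promoter 1 with the last pair overlapping, 3 times before Gpc3, once before Airn at 11 bases and in 32.7% of all windows. TATAAA occurred before Airn, at 132 bases, and in 12.4% of all windows. These are matches of letters, and nothing was measured here on binding or methylation.

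Library totals ran from 6.1 M to 37.4 M assigned counts, and levels are given as CPM, counts per M of those totals. Dnmt1, Dnmt3a and Dnmt3b, the DNA methyltransferases, had 572 to 601, 54.9 to 56.5 and 122 to 128 CPM in STOP cells, 68.8 to 74, 10.5 to 11.9 and 21.8 to 26.9 CPM in TKO cells, and 418 to 425, 64.4 to 75 and 126 to 149 CPM in WT cells, so that all 3 were lowest in TKO cells and the STOP genotype was not marked by low transcript levels. Each organ carried its own markers: the summed level of 6 markers per organ was at least 29964 CPM in heart, 39847 in liver, 1218 in kidney, 15030 in lung and 5817 in brain, against at most 1272, 2255, 495, 130 and 329 CPM in libraries of any other kind. The 11 pWT embryo columns are headed O48 in the deposited tables and were tied to their libraries by elimination, on which every embryo comparison below rests.

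In WT haploid cells and pWT embryos, Grb10 and Gpc3 stayed at or below 33.4 CPM in every library, while Igf2r reached 283 CPM. In WT haploid cells Igf2r stood at 91.9 ± 1.37 CPM, Grb10 at 18.1 ± 4.54 CPM and Gpc3 at 26 ± 6.4 CPM (SD, n = 3). In pWT embryos Igf2r averaged 11 ± 7.31 CPM at 2C (SD, n = 4), 248 ± 31.4 CPM in morulae (n = 3) and 153 ± 16.4 CPM in blastocysts (n = 4). Igf2r RNA thus climbed after the 2C stage, by 4.01 ± 0.46 on the log2 scale in morulae (SE; edgeR adjusted p = 5.74e-05, with 42.5% of all genes called) and by 2.99 ± 0.42 in blastocysts (adjusted p = 0.000195; 46.8% called). Blastocysts and morulae were not called apart (-1.02 ± 0.42, adjusted p = 0.246, with 2.58% of genes called). That fit took its spread from all pWT stages, 2C included. Igf2r had 222 to 283 CPM in pWT morulae and 135 to 170 CPM in pWT blastocysts. These ranges do not overlap, a separation whose share over all genes was not counted. Grb10 stayed between 2.31 and 24.2 CPM in all 11 pWT embryo libraries, with no stage pair called (lowest adjusted p = 0.342). Gpc3 was at 0 counts in 3 of 4 pWT libraries at 2C, 1 of 3 at the morula stage and 4 of 4 at the blastocyst stage, where 3 counts of a library's total would be 0.201 to 0.311 CPM.

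In organs, counted in separate tables and not tested against embryos, each gene had its own order. At P1, Igf2r averaged 568 ± 30.9 CPM in pWT heart, 367 ± 28.4 in lung, 181 ± 9.55 in kidney and 54.2 ± 1.16 in liver (SD, n = 3 each), and every neighbouring pair in that order was called, the closest being heart against lung (0.83 ± 0.091 on the log2 scale, adjusted p = 1.58e-06, with 67.8% of genes called). Gpc3 ran the other way for heart, with 636 ± 91.2 CPM in pWT kidney, 188 ± 14.9 in liver, 165 ± 27.7 in lung and 81.3 ± 22.3 in heart, and all pairs were called, including liver against lung (0.8 ± 0.17, adjusted p = 0.000732; 76.7% called). Grb10 averaged 778 ± 117 CPM in pWT heart, 606 ± 59.6 in kidney, 418 ± 13.4 in lung and 331 ± 31.2 in liver. Heart stood above kidney (0.8 ± 0.12; 65.6% called), liver (0.81 ± 0.12; 72.9% called) and lung (1.09 ± 0.12), and kidney and liver did not differ in the fit (0.01 ± 0.12, adjusted p = 0.927; 73.7% called), which scales libraries by their composition and so places liver higher than its CPM does. Kidney over lung (adjusted p = 0.0415, with 68.2% called) and liver over lung (0.0455) were called in the main fit. Both calls were lost with median-of-ratios scaling and without the filter on low counts (0.115 to 0.127 and 0.131 to 0.343). With 1 library left out, kidney over lung was lost in 5 of 6 fits (up to 0.153). Liver over lung was lost in 6 of 6 (up to 0.531).

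At E18.5 Grb10 in liver stood with heart rather than at the low end, and brain was the lowest organ for all 3 genes. In batch 1 pWT libraries, Igf2r had 973 and 1699 CPM in heart, 615 and 618 in lung, 263 and 398 in kidney, 124 and 120 in liver and 102 and 85.9 in brain. Kidney and liver did not differ for Igf2r in the fit (0.33 ± 0.29, adjusted p = 0.406; 45.9% called), and heart against lung was called (1.51 ± 0.3, adjusted p = 0.00494; 46.6% called). Liver lay below lung (-1.41 ± 0.3, adjusted p = 0.00558; 53.8% called). Lung over kidney was called (kidney against lung -1.09 ± 0.3, adjusted p = 0.0258) and lost without the first kidney library (0.153) or either lung library (0.128 and 0.124). Grb10 had 1298 and 1485 CPM in pWT heart, 1495 and 928 in liver, 761 and 769 in kidney, 699 and 618 in lung and 149 and 153 in brain. Heart stood over kidney (1.46 ± 0.23, adjusted p = 0.00211, with 40% called). In the joint fit of the pWT organs, neither heart and liver (adjusted p = 0.304, with 49.4% called) nor kidney and lung (0.961, with 35.3% called) were called apart. Without the second liver library, heart against liver was -0.575 for Grb10 (adjusted p = 0.0255). Gpc3 had 787 and 865 CPM in pWT kidney, 536 and 662 in liver, 286 and 244 in lung, 135 and 150 in heart and 28.9 and 28.7 in brain, with heart and lung the neighbours not called apart (adjusted p = 0.0567). The fit, scaling for composition, put Gpc3 in kidney below liver (-0.66 ± 0.18, adjusted p = 0.0193), a call lost without the second liver (0.06) or the first kidney library (0.134). Brain lay below each other organ for all 3 genes (64.9% of genes called against heart, 58.2% against kidney and 58.5% against lung), the closest being Igf2r in brain against liver (-1.36 ± 0.3, adjusted p = 0.00473; 69.8% called), lost without the second brain library (0.0509).

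Per kilobase of exon the genes can be set against each other. In pWT P1 kidney Gpc3 reached 236 ± 33.9 CPM per kb, against 66.7 ± 6.56 for Grb10 and 19.4 ± 1.03 for Igf2r, whereas in pWT P1 heart the values were 30.2 ± 8.3 for Gpc3, 85.6 ± 12.8 for Grb10 and 61 ± 3.32 for Igf2r (SD, n = 3). Between E18.5 and P1 the pWT libraries came from separate tables and were not tested. Side by side, pWT liver had 2134 ± 99.6 CPM of Grb10, 620 ± 78.8 of Gpc3 and 157 ± 18.3 of Igf2r at E18.5 in batch 2 (SD, n = 4), and 331 ± 31.2, 188 ± 14.9 and 54.2 ± 1.16 CPM at P1.

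**Figure D1:**
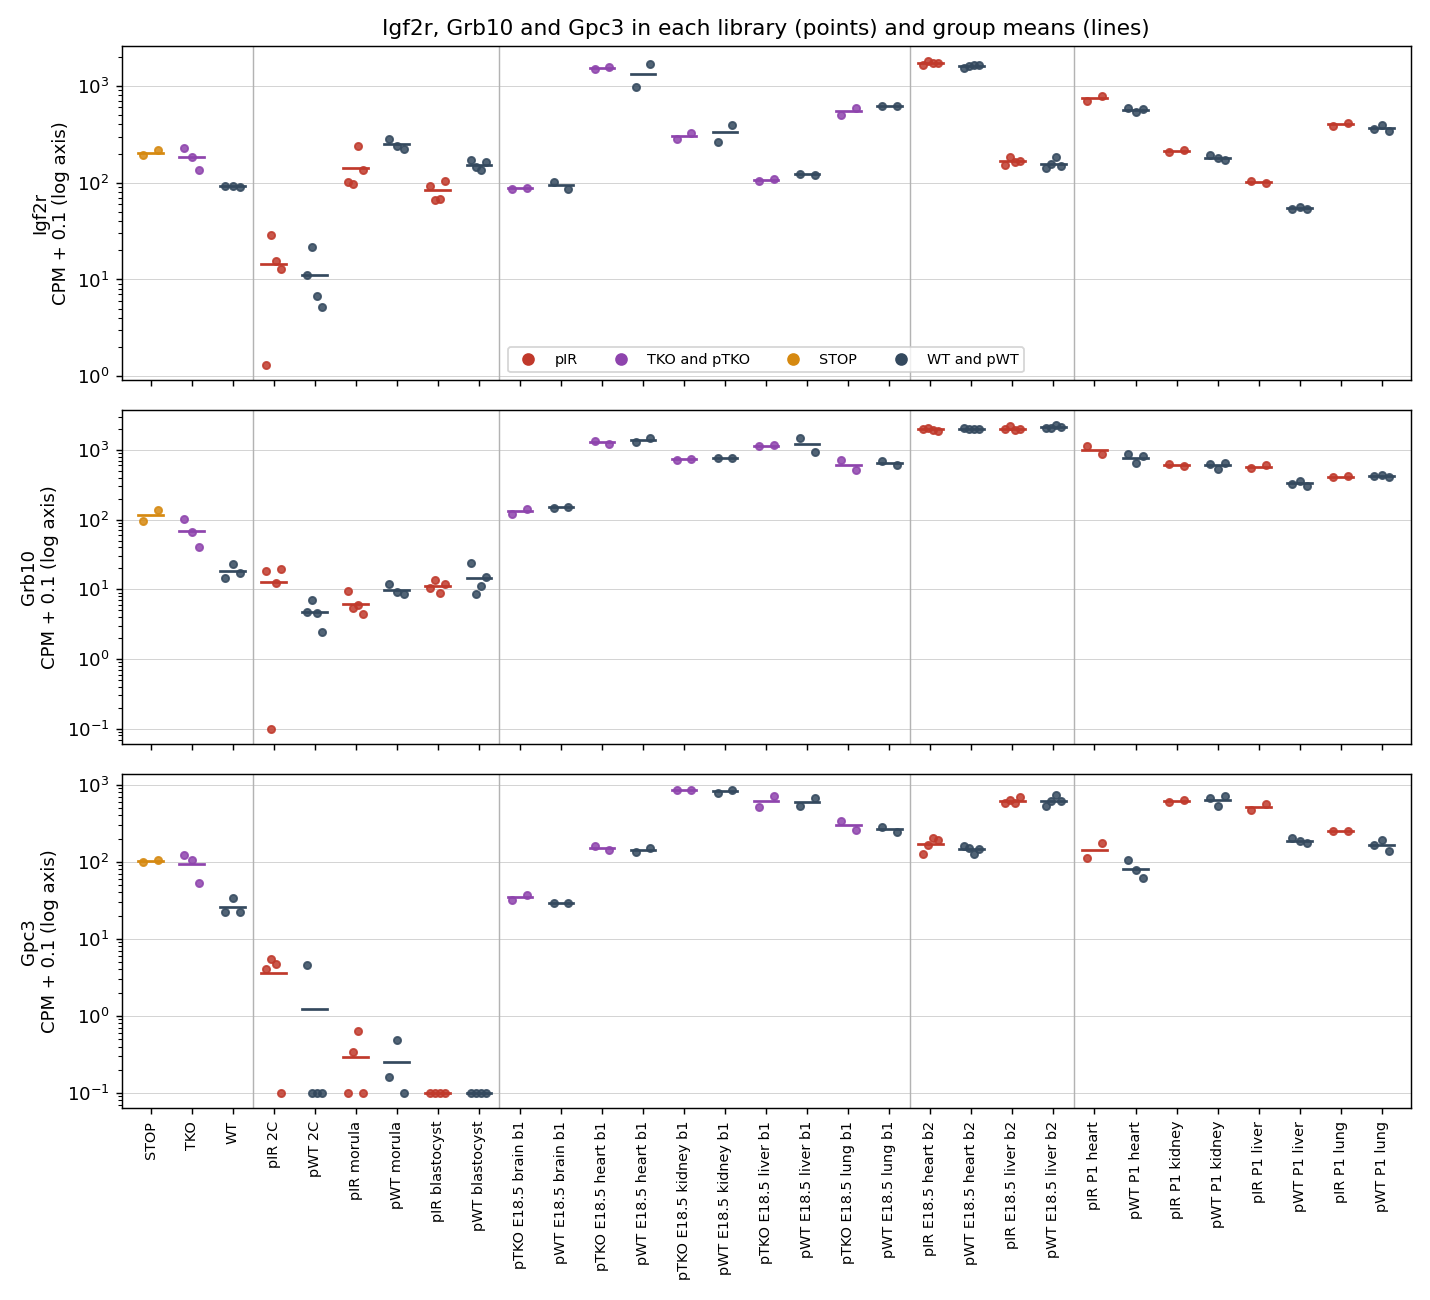
Level of each gene in every library, as CPM plus 0.1 on a log axis, with haploid cells, embryos, E18.5 batch 1, E18.5 batch 2 and P1 set off by vertical lines; points are libraries and short lines are group means. Igf2r reaches 1807 CPM in E18.5 heart, Gpc3 is at 0 in all 8 blastocyst libraries, and the P1 liver groups do not overlap for any of the 3 genes. The share of all genes that separate in this way was not counted, and 39.2% of all genes were called in P1 liver.

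Across the 15 wild-type groups, the log2 levels of Grb10 and Gpc3 ran together most closely (Pearson r = 0.90 over group means), followed by Igf2r and Grb10 (0.62) and Igf2r and Gpc3 (0.36). Over the same 15 groups the genes most like Igf2r among 15090 ranked were Tpm1 (0.909), Myadm (0.907) and Rcan1 (0.897). Closest to Grb10 were Gramd3 (0.981), Pgm1 (0.956) and the imprinted RNA H19 (0.955). Among the closest to Gpc3 were Col18a1 (0.975) and Btd (0.959). These correlations describe group means that share organs, batches and depth. They also span haploid cells and embryos, where Grb10 and Gpc3 were both low, and organs, where both were higher. Within pWT P1 organs the 2 differed in order: Grb10 was highest in heart (778 CPM), where Gpc3 was lowest (81.3 CPM). How many pairs of genes reach 0.90 was not counted.

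In haploid cells all 3 genes were higher in libraries of the TKO genotype than in those of the WT genotype. Igf2r had 231, 183 and 135 CPM in TKO cells, against 92.4, 92.9 and 90.4 CPM in WT cells. Every TKO library lay above every WT library, and the spread in TKO was far wider. How many of all genes separate their groups in this way was not counted, here or below, so lack of overlap only describes the libraries. The fitted rise was 0.93 ± 0.14 on the log2 scale (SE; edgeR adjusted p = 0.00518), in a comparison with 14.6% of all genes called and 9.83% called higher. Grb10 had 101, 66.7 and 40.6 CPM in TKO cells, against 14.3, 23.1 and 16.8 CPM in WT cells, a rise of 1.87 ± 0.3 (adjusted p = 0.0061). Gpc3 had 123, 105 and 52.6 CPM in TKO cells, against 22.4, 33.4 and 22.3 CPM in WT cells, a rise of 1.78 ± 0.27 (adjusted p = 0.00514). For all 3 genes the first TKO library was the highest and the third the lowest, and none of the TKO libraries overlapped the WT libraries. The number of genes called over the whole table ran from 574 without the third WT library to 6968 without the third TKO library, while the 3 genes passed in each such fit.

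STOP cells showed the same direction. Igf2r had 191 and 216 CPM in STOP cells, against the same 3 WT libraries, a rise of 1.05 ± 0.15 (adjusted p = 0.00544; 23.1% of genes called, 13.8% called higher). Grb10 had 95.1 and 137 CPM in STOP cells and rose by 2.58 ± 0.32 (adjusted p = 0.00338). Gpc3 had 98.1 and 105 CPM in STOP cells and rose by 1.86 ± 0.29 (adjusted p = 0.00607). No STOP library overlapped a WT library. Without the second STOP library the calls of Igf2r and Gpc3 were lost (adjusted p = 0.0704 and 0.0684). As both mutants were set against 1 set of WT libraries, the shared direction is not independent. Set against each other directly, STOP and TKO cells were not called apart for Igf2r (0.11, 95% interval -0.24 to 0.46), Grb10 (0.71, 0 to 1.42, adjusted p = 0.902) or Gpc3 (0.09, -0.56 to 0.73), in a comparison with 0.0401% of genes called.

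Gpc3 lies on the X chromosome, and the X moved between these libraries. The median log2 difference of 386 X-linked genes from the autosomes was -0.82, -0.56 and -0.06 in the TKO libraries and between -0.01 and 0.01 in the WT libraries, and with 388 genes it was -0.60 and -0.53 in the STOP libraries. Gpc3 was highest in the TKO library with the lowest X median and lowest in the TKO library whose X median was nearest to WT. Igf2r and Grb10, which are not on the X, had the same order over these TKO libraries, so the order is not particular to Gpc3. Of the 8 listed genes around Gpc3, 2 were higher and 1 lower in TKO cells, with a median of -0.38, and 2 were higher and 3 lower in STOP cells. Among all genes tested, 14.6% were called in TKO cells (9.83% higher) and 23.1% in STOP cells (13.8% higher). Hs6st2, a heparan sulfate sulfotransferase, rose by 2.2 ± 0.49 in TKO cells, while Hprt, a purine salvage enzyme, fell by 0.59 (adjusted p = 0.0134). Endothelium markers summed to 156 to 164 CPM in STOP, 119 to 178 CPM in TKO and 84.2 to 104 CPM in WT cells; of the 4 tested, Pecam1 and Cldn5 were called higher in both mutants and 0 lower. Trophectoderm markers summed to 126 to 145 CPM in STOP, 106 to 141 CPM in TKO and 56.7 to 62.3 CPM in WT cells, yet the 5 tested had a median log2 change of -1.42 in STOP and -0.67 in TKO cells, with Tfap2c called higher and Cdx2 and Krt8 lower in TKO cells. The part of these markers in the result was not tested. The pluripotency markers summed to 4591 to 4791 CPM in STOP, 4322 to 4803 CPM in TKO and 4650 to 4956 CPM in WT cells.

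Other genes of the same pathways were also called in the haploid cells. Over all genes, 14.6% were called in TKO cells (9.83% higher) and 23.1% in STOP cells (13.8% higher). Of 6 tested IGF and insulin ligands, receptors and substrates, 1 rose and 0 fell in TKO cells and 2 rose and 0 fell in STOP cells. The insulin receptor substrate Irs1 averaged 2.1 CPM in TKO cells against 0.0555 CPM in WT cells (5.09 ± 1.1, adjusted p = 0.0163). Of 6 IGF binding proteins, 2 rose in TKO cells and 3 in STOP cells and 0 fell; Igfbp4 averaged 17.8 CPM in TKO cells against 1.86 CPM in WT cells (3.18 ± 0.61, adjusted p = 0.0125). Of 9 Hedgehog pathway genes, 2 rose and 1 fell in TKO cells and 4 rose and 2 fell in STOP cells. Gli3, a transcription factor of the pathway, averaged 31.2 CPM in TKO cells against 8.41 CPM in WT cells (1.84 ± 0.15, adjusted p = 0.00049), Smo, its signal transducer, rose by 1.46 ± 0.37 and Sufu, an inhibitor, fell by 0.75 (adjusted p = 0.0252). Of 10 genes of mannose 6-phosphate sorting, Sort1, a sorting receptor, was called, at 17.1 CPM in TKO cells against 4.07 CPM in WT cells. Igf2, the IGF ligand that is paternally expressed in the mouse, averaged 10.2 ± 4.62 CPM in STOP cells (SD, n = 2), 8.55 ± 7.51 CPM in TKO cells (n = 3) and 14.3 ± 3.11 CPM in WT cells (n = 3) and was not called. Airn stayed below 0.52 CPM in every haploid library.

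**Figure D2:**
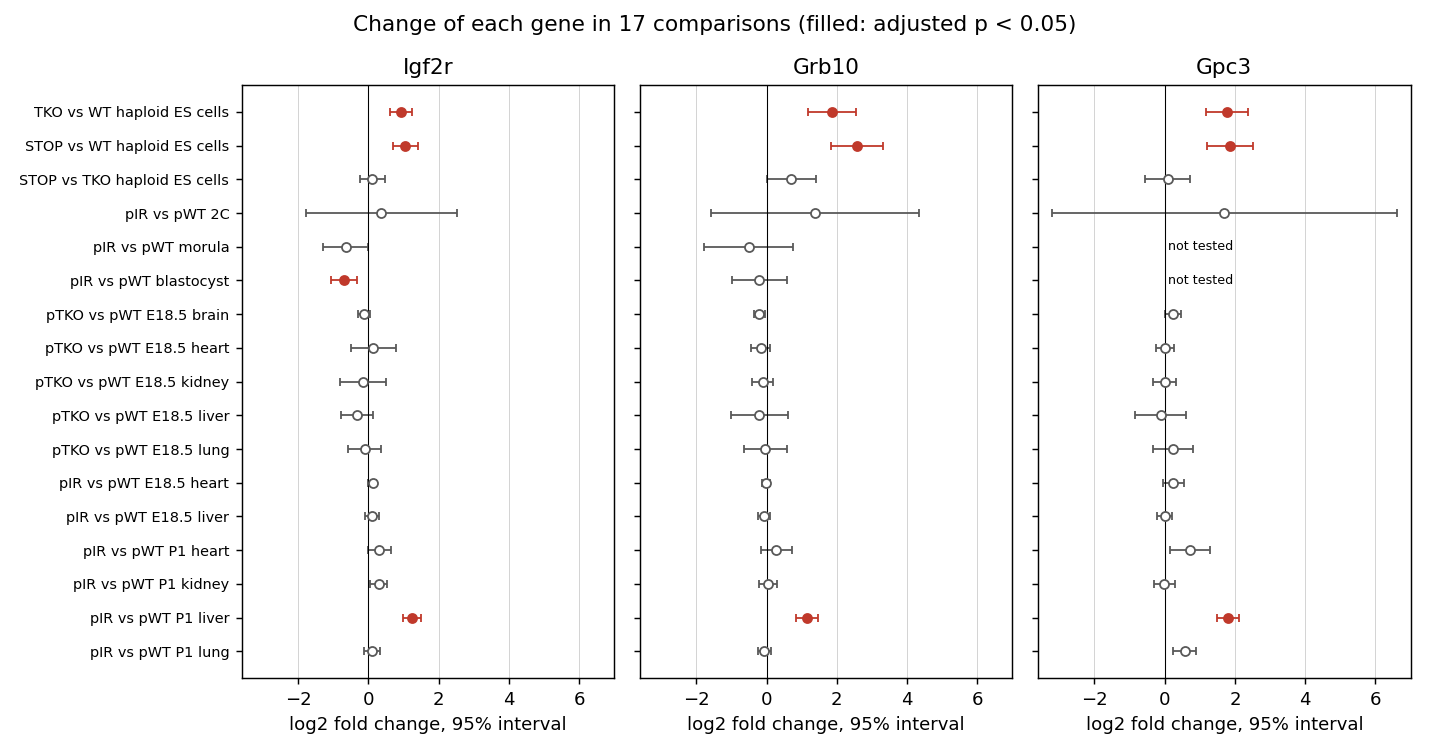
Fitted log2 fold change of each gene, first-named group over second, in 17 comparisons, with bars for the 95% interval; filled points have an adjusted p below 0.05. All 3 genes are raised in TKO and STOP cells and in P1 pIR liver, and Igf2r is lowered in pIR blastocysts.

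Among embryos a call was made for Igf2r in blastocysts alone. Igf2r had 92.2, 66.7, 68.2 and 105 CPM in pIR blastocysts, against 170, 144, 135 and 163 CPM in pWT blastocysts. All 4 pIR libraries lay below all 4 pWT libraries. The fitted change was -0.7 ± 0.17 on the log2 scale (SE; adjusted p = 0.0226), in a comparison with 10.6% of genes called and 3.9% called lower. The call was lost without any 1 of the first or the second pWT library or the second or the third pIR library (adjusted p between 0.0604 and 0.0832) and with morulae added to the fit (0.115). In morulae Igf2r had 102, 96.2, 238 and 134 CPM in pIR libraries, against 283, 240 and 222 CPM in pWT libraries. The third pIR morula library lay within the pWT range and the other 3 below it, and the change was not called (-0.65 ± 0.29, adjusted p = 0.392; 0.136% of genes called). The change in blastocysts minus that in morulae was -0.01 ± 0.34 (adjusted p = 1, with 0% of genes called and 1101 genes at an unadjusted p under 0.05), an interval too wide to call them alike.

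At 2C, Igf2r had 1.22, 28.6, 15.3 and 12.7 CPM in pIR embryos, against 11, 21.3, 6.62 and 5.04 CPM in pWT embryos, and was not called (0.36 ± 0.99, adjusted p = 1). No gene was called at 2C by edgeR (0%), where 235 of 11076 tested had an unadjusted p under 0.05 and DESeq2 called 33. Grb10 had 0 CPM in the second pIR 2C library and 12.2 to 19.5 CPM in the other 3, against 4.68, 6.98, 4.46 and 2.31 CPM in pWT 2C embryos, so that 3 pIR libraries lay above and 1 below the pWT range (1.37 ± 1.4, adjusted p = 1). Grb10 was not called in morulae, at 4.31 to 9.36 CPM in pIR and 8.42 to 11.7 CPM in pWT libraries, nor in blastocysts, at 8.74 to 13.4 CPM in pIR and 8.58 to 24.2 CPM in pWT libraries. Gpc3 had 3.92, 5.43, 4.56 and 0 CPM in pIR 2C embryos, against 4.5, 0, 0 and 0 CPM in pWT 2C embryos (1.7 ± 2.3, adjusted p = 1), and from the morula on it did not pass the filter on low counts. All 8 blastocyst libraries held 0 Gpc3 counts, where 3 counts would be 0.259 to 0.307 CPM in pIR and 0.201 to 0.311 CPM in pWT libraries.

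A few genes of the mannose 6-phosphate route were called lower in blastocysts, where 10.6% of all genes were called and 3.9% called lower. Of 10 sorting genes, 0 rose and 2 fell: Gnptab, which makes the mannose 6-phosphate tag, averaged 48.8 CPM in pIR blastocysts against 113 CPM in pWT blastocysts (-1.04 ± 0.24, adjusted p = 0.0179), and the adaptor Gga3 averaged 14.1 CPM against 30 CPM (adjusted p = 0.0474). Of 14 lysosomal hydrolases, 0 rose and 2 fell, with Gaa, the acid glucosidase, at 16.5 CPM in pIR blastocysts against 56.2 CPM in pWT blastocysts (-1.59 ± 0.31, adjusted p = 0.0112). The median over the sorting genes was -0.17 and over the hydrolases -0.07, beside -0.07 over all genes tested. On chromosome 17, the Igf2r neighbours Mrpl18, Acat2 and Tcp1 rose, by 0.78, 0.91 and 0.72 on the log2 scale, among 4 tested. Airn had 0.511 to 1.81 CPM in pIR and 1.16 to 5.11 CPM in pWT blastocysts. The summed primitive endoderm markers were 178 to 347 CPM in pIR and 299 to 466 CPM in pWT blastocysts, the pluripotency markers 5803 to 6734 CPM in pIR and 4664 to 5150 CPM in pWT blastocysts, and the trophectoderm markers 3660 to 5515 CPM in pIR and 2818 to 5296 CPM in pWT blastocysts; their part in the result was not tested. From these pooled RNA values, fewer cells of a type and less RNA per cell cannot be told apart, here and in the organs.

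At E18.5 none of the 3 genes was called in any organ or batch. Igf2r had 1637, 1807, 1743 and 1712 CPM in pIR heart, against 1518, 1608, 1650 and 1628 CPM in pWT heart (0.12, 95% interval 0 to 0.23, adjusted p = 0.818; 0.0137% of genes called). The groups overlapped slightly. Grb10 averaged 1976 ± 85.9 CPM in pIR heart and 2005 ± 46.8 CPM in pWT heart (SD, n = 4 each; -0.01, interval -0.13 to 0.1). Gpc3 had 125, 166, 205 and 192 CPM in pIR heart, against 162, 150, 126 and 145 CPM in pWT heart (0.25, -0.05 to 0.55, adjusted p = 0.818). In liver, the change was 0.09 for Igf2r (95% interval -0.11 to 0.29), -0.06 for Grb10 (-0.23 to 0.1) and 0 for Gpc3 (-0.21 to 0.22), with overlapping groups, and 0% of genes were called by edgeR, where 813 had an unadjusted p under 0.05 and DESeq2 called 11. The pIR change did not differ between heart and liver in a test of the difference itself (adjusted p at least 0.911 for the 3 genes; 0.00622% of genes called).

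The pTKO organs of batch 1 had 2 libraries a group. In heart 26.8% of all genes were called, yet Igf2r had 1496 and 1586 CPM in pTKO heart against 973 and 1699 CPM in pWT heart (0.14, 95% interval -0.5 to 0.78, adjusted p = 0.689), a range set by the pWT pair; without the second pWT library the change was 0.512 (adjusted p = 0.0164) and without the first it was -0.176. Grb10 had 1368 and 1238 CPM in pTKO heart against 1298 and 1485 CPM in pWT heart (-0.17, -0.45 to 0.11), and Gpc3 had 161 and 141 CPM in pTKO heart against 135 and 150 CPM in pWT heart (0.01, -0.26 to 0.28). In brain, where 1.75% of genes were called, Grb10 had 121 and 142 CPM in pTKO libraries against 149 and 153 CPM in pWT libraries (-0.21 ± 0.074, adjusted p = 0.163), and Gpc3 had 32.1 and 37 CPM in pTKO libraries against 28.9 and 28.7 CPM in pWT libraries (0.25 ± 0.11, adjusted p = 0.26). With 2 libraries a group, the groups did not overlap for either gene, a separation whose share over all genes was not counted. Neither gene passed the threshold. Grb10 passed without the filter on low counts (0.0458), and its change was -0.327 without the second pTKO brain library. In kidney, liver and lung, 0% of genes were called by edgeR, with 2374, 642 and 488 at an unadjusted p under 0.05 and 288, 56 and 12 called by DESeq2, and the 9 member changes lay between -0.33 (Igf2r in liver, with 103 and 108 CPM in pTKO against 124 and 120 CPM in pWT libraries) and 0.25 (Gpc3 in lung, with 342 and 260 CPM in pTKO against 286 and 244 CPM in pWT libraries). Without the second pTKO lung library the Gpc3 change was 0.428 (adjusted p = 0.0115). The pTKO change did not differ between the 5 organs for any of the 3 genes (adjusted p at least 0.647; 0.0106% of genes called).

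Airn was called higher in pTKO heart, where Igf2r was not called. Airn had 32.4 to 38.5 CPM in pTKO heart, against 5.73 to 8.2 CPM in the batch 1 pWT heart libraries (2.26 ± 0.26, adjusted p = 0.0183). Without either pTKO heart library 0 genes of the whole table were called. The pWT hearts of batch 2 had 35.9 to 45.5 CPM of Airn in a separate table, beside 38.2 to 42.7 CPM in pIR hearts of that batch. Igf2, the ligand that Igf2r clears, had 2277 and 2634 CPM in pTKO heart against 3135 and 3195 CPM in the batch 1 pWT hearts (-0.44 ± 0.12, adjusted p = 0.0492), and the insulin receptor Insr averaged 250 CPM in pTKO heart against 120 CPM in pWT heart (0.98 ± 0.18, adjusted p = 0.0265). In batch 2, Insr averaged 250 ± 10.9 CPM in pWT heart (SD, n = 4). The X median of pTKO heart was 0.40 and 0.38, against 0.07 and -0.07 in pWT heart, and the hepatocyte marker sum reached 2255 CPM in a pTKO heart library; their part in the result was not tested.

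At P1 all 3 genes rose in pIR liver. Igf2r had 104 and 98.6 CPM in pIR liver, against 53.3, 55.5 and 53.7 CPM in pWT liver, a rise of 1.24 ± 0.12 on the log2 scale (SE; adjusted p = 1.49e-05). Grb10 had 552 and 605 CPM in pIR liver, against 330, 363 and 300 CPM in pWT liver, a rise of 1.15 ± 0.14 (adjusted p = 7.9e-05). Gpc3 had 472 and 560 CPM in pIR liver, against 204, 185 and 174 CPM in pWT liver, a rise of 1.81 ± 0.14 (adjusted p = 4.22e-06). No pIR library overlapped a pWT library for any of the 3 genes, and no call was lost with any 1 library left out. The background was high, with 39.2% of all genes called and 20.7% called higher, so a call as such was common; among 14588 genes tested, 2.98% had a larger absolute change than Gpc3, 9.43% than Igf2r and 11.5% than Grb10. The ratio of mean CPM was 1.87 for Igf2r, 1.75 for Grb10 and 2.75 for Gpc3, below the fitted folds of 2.37, 2.22 and 3.5, because the fit scales libraries by composition.

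In P1 liver the hepatocyte markers rose beside these genes and the red cell markers fell, with 39.2% of all genes called and 20.7% called higher. All 6 hepatocyte markers were called higher, and their summed level was 96880 to 109732 CPM in pIR liver against 39847 to 49494 CPM in pWT liver, a ratio of means of 2.39. Afp, the fetal counterpart of albumin, averaged 21400 CPM in pIR liver against 5060 CPM in pWT liver (2.42 ± 0.19, adjusted p = 3.83e-06). All 6 red cell markers were called lower, with a summed level of 15561 to 23769 CPM in pIR liver against 55771 to 69572 CPM in pWT liver, a ratio of 0.315. The ratio of mean sums was 0.966 for endothelium, 1.03 for macrophage and 0.848 for mesenchyme markers. The hepatocyte and red cell lists were far above 0 in every liver library, and the part of any list in the result was not tested. At E18.5 the hepatocyte sums of batch 2 liver were 133239 to 135850 CPM in pIR and 124098 to 138265 CPM in pWT libraries and the red cell sums 27551 to 33559 CPM in pIR and 28732 to 42206 CPM in pWT libraries, and the 3 genes were not called.

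**Figure D3:**
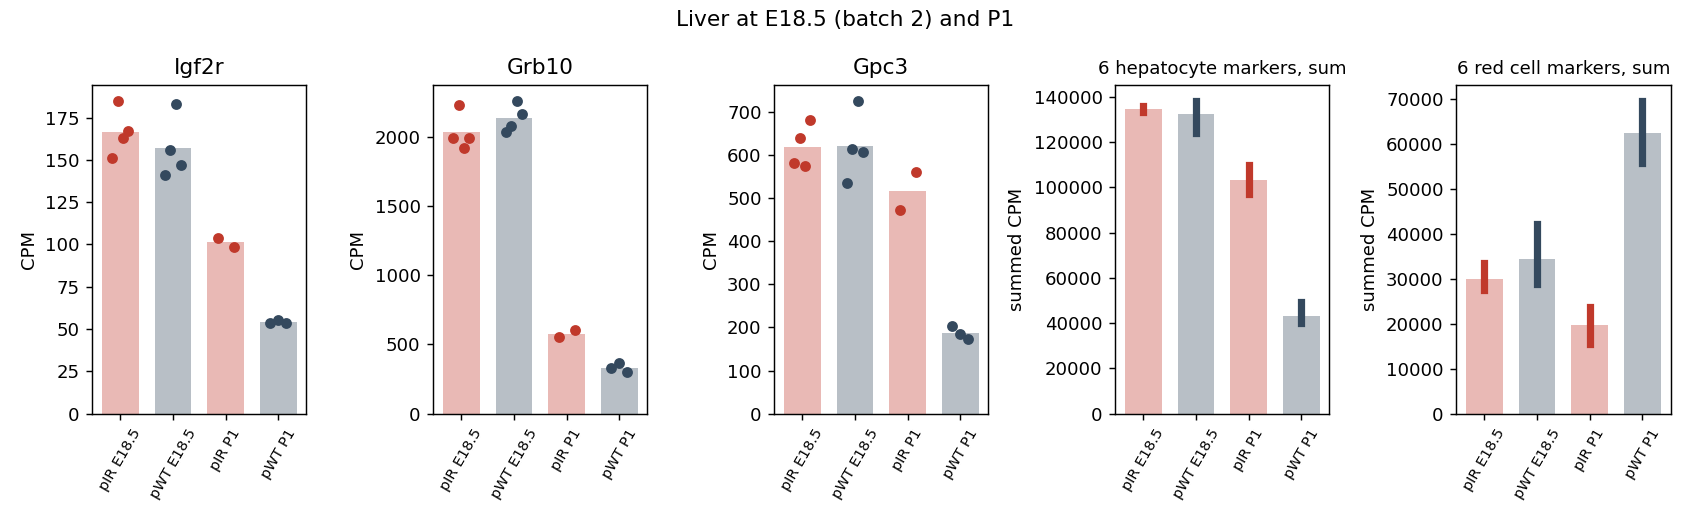
Bars give the mean CPM of each gene, and the mean summed CPM of 6 hepatocyte and 6 red cell markers, in pIR and pWT liver at E18.5 (batch 2, n = 4 each) and P1 (n = 2 and 3); points are libraries and thick lines span the lowest to the highest library. At P1 the 3 genes and the hepatocyte markers are higher in pIR and the red cell markers lower, while the E18.5 groups overlap.

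In the other P1 organs none of the 3 genes was called in the fit of the organ alone. Gpc3 had 111 and 174 CPM in pIR heart, against 105, 77.9 and 60.9 CPM in pWT heart (0.71 ± 0.25, adjusted p = 0.135; 2.32% of genes called), and passed with the 4 organs in 1 fit (0.0267) and in no other alternative run (0.0611 to 0.619). Gpc3 also had 254 and 247 CPM in pIR lung, against 167, 192 and 136 CPM in pWT lung (0.57 ± 0.14, adjusted p = 0.0705; 2.6% called), a difference that passed with DESeq2 (adjusted p = 0.00405), without the filter on low counts (0.0356), with the replicate block (0.0164) and without the second pWT lung library (0.0491). It did not pass with the 4 organs in 1 fit (0.239), with median-of-ratios scaling (0.0704) or with any other 1 library left out (up to 0.327). In both organs the groups did not overlap. Of 6 markers of mesenchyme, the tissue that includes collagen-making fibroblasts, 4 were called higher in heart and 3 in lung; they summed to 6656 to 9946 CPM in pIR heart against 2753 to 3892 CPM in pWT heart and to 6017 to 7872 CPM in pIR lung against 3346 to 4319 CPM in pWT lung, and their part in these values was not tested. Red cell markers summed to 8493 to 11323 CPM in pIR lung against 17392 to 27155 CPM in pWT lung, with 4 of 6 called lower. Gpc3 in kidney had 594 and 627 CPM in pIR libraries against 665, 533 and 709 CPM in pWT libraries (-0.01, 95% interval -0.31 to 0.29; 10.6% called).

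Igf2r in P1 kidney had 209 and 220 CPM in pIR libraries, against 191, 180 and 172 CPM in pWT libraries, without overlap and without a call (0.29 ± 0.099, adjusted p = 0.0965). In P1 heart it had 707 and 794 CPM in pIR libraries, against 592, 533 and 579 CPM in pWT libraries (0.31 ± 0.14, adjusted p = 0.227), again without overlap and passing with the 4 organs in 1 fit (0.0479) but in no other alternative run (0.123 to 0.733), and in lung 385 and 419 CPM in pIR libraries, against 362, 398 and 342 CPM in pWT libraries (0.09 ± 0.098). Grb10 had 1130 and 883 CPM in pIR heart against 873, 648 and 812 CPM in pWT heart (0.28 ± 0.19, adjusted p = 0.384), and its groups overlapped in kidney (0.04, 95% interval -0.21 to 0.29) and lung (-0.06, -0.25 to 0.13).

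The liver effect was larger than that in the other P1 organs by a test of the difference itself. The pIR change differed between the 4 organs for Igf2r (adjusted p = 0.000104), Grb10 (0.000948) and Gpc3 (0.0015), in a test that called 25.3% of all genes. Pair by pair, heart minus liver was -0.95, -0.88 and -1.11 on the log2 scale for Igf2r, Grb10 and Gpc3 (adjusted p at most 0.0126; 19.2% called). Kidney minus liver was -0.95, -1.11 and -1.82 (adjusted p at most 0.00128; 14.9% called), and liver minus lung was 1.16, 1.21 and 1.25 (at most 0.00682; 16.2% called). The Gpc3 call between heart and liver was lost without the first pIR heart (adjusted p = 0.0676) or the second pIR liver library (0.06). Heart, kidney and lung were not called apart from each other for any of the 3 genes (5.97% of genes called for heart minus kidney, 0.442% for heart minus lung and 2.13% for kidney minus lung), except Gpc3 in heart minus kidney without the first pIR heart (0.978, adjusted p = 0.0431).

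The ligand of Igf2r rose in the same livers, where 39.2% of all genes were called and 20.7% called higher. Igf2 had 10405 and 10583 CPM in pIR liver, against 3220 to 3514 CPM in pWT liver (1.99 ± 0.17, adjusted p = 5.54e-06). Of 6 tested IGF and insulin ligands, receptors and substrates, 3 rose and 0 fell, the others being Irs1 (1.47 ± 0.16) and Irs2 (0.46 ± 0.13). The receptor Igf1r averaged 23.1 ± 2.98 CPM in pIR liver and 36.8 ± 0.608 CPM in pWT liver (SD, n = 2 and 3), and was not called. Of 8 IGF binding proteins and their cofactor, 5 rose and 2 fell, with a median of 0.75. Igfals, which stabilizes circulating IGF complexes, averaged 39 CPM in pIR liver against 8.39 CPM in pWT liver (2.55 ± 0.19, adjusted p = 2.57e-06), Igfbp4 rose by 1.15 ± 0.14 and Igfbp2 by 0.99 ± 0.18, and Igfbp5 fell by 0.72 (adjusted p = 0.00439). Of 9 receptor adaptors, Grb14, a relative of Grb10 that also binds the insulin receptor, rose by 1.28 ± 0.18 and Gigyf1, a Grb10-interacting protein, fell by 0.57.

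Lysosomal genes rose in part, beside 39.2% of all genes called in P1 liver (20.7% higher) and 10.6% called in P1 kidney. Of 14 hydrolases, cargo of the mannose 6-phosphate receptors, 9 rose and 0 fell in pIR liver, with a median of 0.49 beside -0.03 over all genes tested; Gaa averaged 90.6 CPM in pIR liver against 46.9 CPM in pWT liver (1.29 ± 0.12, adjusted p = 1.32e-05) and Man2b1, a mannosidase, 132 CPM in pIR liver against 94.5 CPM in pWT liver (0.82 ± 0.13). In P1 kidney 9 of the 14 also rose and 0 fell, with a median of 0.47 beside -0.01 over all genes, led by Lgmn at 276 CPM in pIR kidney against 129 CPM in pWT kidney (1.14 ± 0.099, adjusted p = 0.00335), in an organ where Igf2r was not called. Kidney markers there summed to 2857 to 2922 CPM in pIR against 1218 to 1376 CPM in pWT libraries. No hydrolase was called in P1 heart or lung, where the medians were 0.37 and 0.1. Of 10 sorting genes in P1 liver, Sort1 (0.84 ± 0.13) and M6pr, the smaller mannose 6-phosphate receptor (0.51 ± 0.14), rose and Gga3 fell by 0.67.

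Relatives and neighbours of the 3 genes gave a mixed account in P1 liver, beside the same 39.2% of all genes called. Of 4 other glypicans tested, Gpc4 averaged 47.1 CPM in pIR liver against 26.6 CPM in pWT liver (1.17 ± 0.13, adjusted p = 4.11e-05) and Gpc6 rose by 1.21 ± 0.19, while Gpc2 fell by 1.15. Gpc4, which adjoins Gpc3 on the X chromosome, also rose in P1 kidney, at 271 CPM in pIR against 111 CPM in pWT libraries (1.34 ± 0.24, adjusted p = 0.0162, with 10.6% of genes called), where Gpc3 did not. Of 9 Hedgehog pathway genes, Smo was called in liver (0.47 ± 0.16). In P1 lung, where 2.6% of all genes were called, Ptch1, the Hedgehog receptor and target, averaged 312 CPM in pIR against 175 CPM in pWT libraries (0.8 ± 0.094, adjusted p = 0.00701). Gli3 (0.89 ± 0.11) and Smo rose with it. The summed mesenchyme markers had a ratio of 1.85 in the same lungs, and their part in these changes was not tested. Near Igf2r, Plg, plasminogen, averaged 3170 CPM in pIR liver against 1010 CPM in pWT liver (1.99 ± 0.17, adjusted p = 5.3e-06), among 3 higher and 1 lower of 7 tested. Airn was at 0.369 to 0.687 CPM in pIR liver and 0.926 to 1.7 CPM in pWT liver. Near Grb10, Ddc rose by 1.46 ± 0.19 and Fignl1 fell by 0.87. Of 13 other imprinted growth genes, 4 rose and 3 fell, with a median of -0.13.

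**Figure D4:**
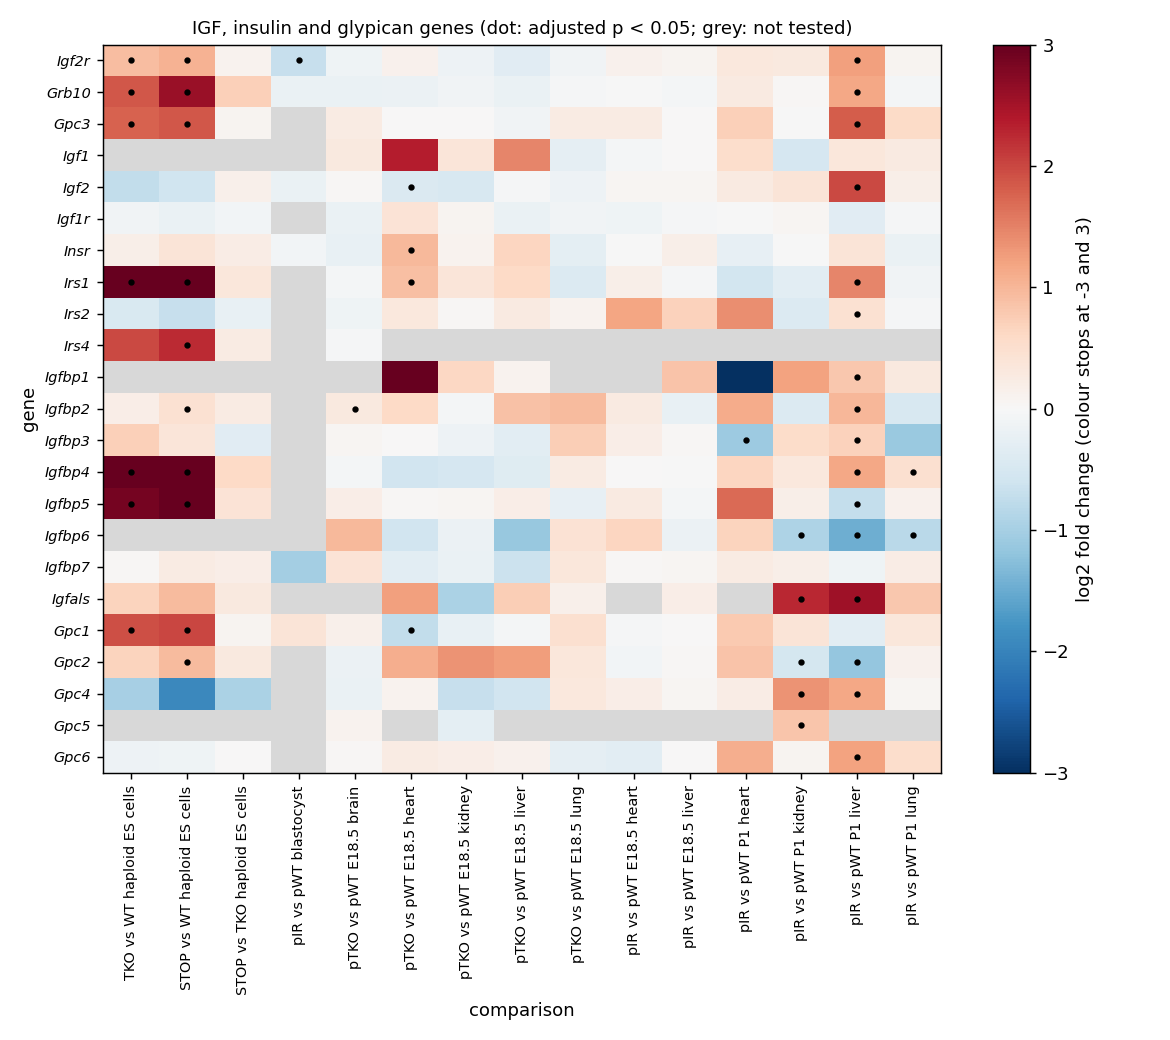
Fitted log2 fold change of the 3 genes and of IGF, insulin and glypican genes (rows) in 15 comparisons (columns), first-named group over second; a dot marks an adjusted p below 0.05, grey marks genes not tested, and colour stops at -3 and 3. P1 liver has the most dots, haploid cells share calls of Irs1, Igfbp4, Igfbp5 and Gpc1, and the pIR comparisons at E18.5 have none. Of all genes, 39.2% were called in P1 liver, 14.6% in TKO and 23.1% in STOP against WT cells. In pIR organs at E18.5 the shares were 0.0137% in heart and 0% in liver.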

How the data were processed

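Polyadenylated RNA was sequenced from 87 libraries. The labels describe both a standard and a low-input kit without saying which library used which, which could change levels between stages. Mutants and their controls share a table, as do all P1 organs; tests between E18.5 batch 1 organs and between 2C and later stages join raw counts of several tables, and other levels set side by side across tables are descriptions. The submitters' processing notes name Trim Galore 0.6.6, HISAT2 2.1.0, featureCounts 1.6.4 and DESeq2, and the mm10 build. The values the authors deposited are raw counts per gene symbol in 10 tables, and neither the strand setting nor the handling of reads that match several places is stated in the labels.

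Columns were tied to libraries by name, except that 11 columns headed O48 were tied to the pWT embryos by elimination; 3 unnamed columns are empty. The closest libraries of a group differed by a chi-square per degree of freedom of 3.54, so none was counted as a repeat of another. From the counts, CPM were computed on library totals. Each of 17 comparisons was fitted on the whole table with edgeR 4.0.16 (R 4.3.3; quasi-likelihood F test, TMM scaling, filterByExpr with a minimum count of 10), with Benjamini-Hochberg adjustment over all genes tested and a threshold of 0.05. All 3 haploid genotypes shared a fit; embryos and organs were fitted by stage, or by organ and batch. The SE of a log2 change is its size over the square root of F, and 95% intervals use the t quantile for the total degrees of freedom of edgeR's fit. Differences between organs or stages were interaction terms of a joint fit. The fits were checked on simulated counts. Alternatives were DESeq2 1.42.0, no filter, scaling by median of ratios, a replicate block, wider or narrower fits and each library left out.

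Deviations of same-numbered libraries had correlations from -0.35 to 0.26. A pairing was looked for only where at least 3 numbers were shared, and there some correlations were negative in every comparison. Comparisons with 2 shared numbers are too few to decide it. Their correlations ran from -0.24 in pTKO liver to 0.21 in pTKO lung and in STOP against WT cells. Same-numbered libraries of different organs were not compared, and the labels name no shared animal or litter. Genes named beside the 3 members are up to 4 called genes per list and comparison with the smallest p, and those closest in pattern by Pearson r of log2(mean CPM + 1) over wild-type groups; Airn, Igf1r, Igf2 in haploid cells, Insr in batch 2 hearts and the genes at the head of a marker list were added after their values were seen. A few genes that the rule names are not reported here. The members, lists and tests were chosen with earlier results of these data known. Positions and exon lengths come from GENCODE M21, where 24418 of 25277 symbols (96.6%) were found. Figures were drawn with matplotlib 3.10.9.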

Additional observations from a re-analysis of the deposited data

Results flagged for a closer look

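The pIR change at P1 differed between organs by a test of the difference itself. Over the 4 organs the adjusted p was 0.000104 for Igf2r, 0.000948 for Grb10 and 0.0015 for Gpc3. Heart minus liver was -0.95 for Igf2r, -0.88 for Grb10 and -1.11 for Gpc3 on the log2 scale. Kidney minus liver was -0.95 for Igf2r, -1.11 for Grb10 and -1.82 for Gpc3. Liver minus lung was 1.16 for Igf2r, 1.21 for Grb10 and 1.25 for Gpc3.

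A single library stood apart from the rest of its group in 2 of 25 groups of member values tested, where chance alone marks about 1 in 20. Grb10 had 2075 CPM in the first pWT heart library of E18.5 batch 2, above the other 3, which lay within 1976 to 1990 CPM. Gpc3 had 4.5 CPM in the first pWT library at 2C, where the other 3 held 0 counts. Any level above 0 would have been marked there, so the rate of 1 in 20 does not apply to that group.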

How the results depend on the processing

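The rises of all 3 genes in TKO cells and in P1 pIR liver kept their direction and their call under every alternative run, P1 liver Igf2r ranging over 1.25 to 1.26, Grb10 over 1.1 to 1.16 and Gpc3 over 1.76 to 1.82 outside the fits with a library left out. Of the other alternatives for a member, 387 stayed on the same side of the threshold, 5 lost a call, 6 gained one and 9 changed sign; with 1 library left out these counts were 1020, 25, 6 and 49. The causes were not tested. Gpc3 at 0 counts allows up to 3 counts of a library's total, which covers counting error only.

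DESeq2 called 33 genes at 2C, 412 in morulae, 2188 in blastocysts, 288, 56 and 12 in pTKO kidney, liver and lung, 20 and 11 in E18.5 pIR heart and liver, and 1561, 2716 and 1057 in P1 heart, kidney and lung; Gpc3 was then -0.00594 in pTKO heart and 0.566 in P1 lung. Without the filter, 58 genes were called in morulae, 951 in pTKO brain, 2 in E18.5 pIR liver, 1107 in P1 heart and 708 in P1 lung, with Grb10 at -0.219 in pTKO brain, Gpc3 at -0.00162 in pTKO kidney and Gpc3 at 0.569 in P1 lung. With the replicate block, 1 gene was called in morulae, 168 in pTKO brain, 2535 in pTKO heart, 9 in pTKO lung, 0 in E18.5 pIR heart, 4 in E18.5 pIR liver, 113 in P1 heart and 1161 in P1 lung, with Gpc3 at -0.0772 in STOP against TKO cells, 0.0773 in P1 kidney and 0.437 in P1 lung; the block changed no other call of the 3 genes. With crossed numbers, 1263 genes were called in pTKO brain, 3034 in heart and 0 in kidney, liver and lung. Both genotypes alone gave 1291 calls for TKO and 8133 for STOP against WT. Morulae and blastocysts in 1 fit gave 218 and 584 calls, with Igf2r at -0.682 in blastocysts. All 5 organs in 1 fit gave 0, 6, 24 and 1 calls in pTKO brain, kidney, liver and lung, with Igf2r at -0.0143 and Gpc3 at -0.134 in heart and Gpc3 at -0.0737 in kidney. Both E18.5 batch 2 organs in 1 fit gave 1 call each in heart and liver, with Grb10 at 0.0034 in heart. All 4 P1 organs in 1 fit gave 2629 calls in heart and 148 in lung, with Igf2r at 0.303 and Gpc3 at 0.709 in heart and Gpc3 at 0.00632 in kidney.

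With 1 library left out, calls ran from 574 to 6968 for TKO and 124 to 1228 for STOP against WT, 4 to 10 for STOP against TKO, 0 to 8 in morulae, 229 to 1520 in blastocysts, 155 to 687 in pTKO brain, 0 to 5266 in heart, 0 to 5327 in kidney, 0 to 7191 in liver and 0 to 7876 in lung, 0 to 3 in E18.5 pIR heart and 0 to 2 in liver, and 5 to 1162, 150 to 2219 and 18 to 346 in P1 heart, kidney and lung. Igf2r ran from 0.96 to 1.12 in STOP against WT, -0.0339 to 0.284 in STOP against TKO, -0.21 to 0.919 at 2C, -0.814 to -0.63 in blastocysts, -0.245 to 0.00583 in pTKO brain, -0.176 to 0.512 in pTKO heart and -0.445 to 0.173 in pTKO kidney. Grb10 ran from -0.391 to 0.135 in blastocysts, -0.327 to -0.114 in pTKO brain, -0.484 to 0.143 in pTKO liver, -0.301 to 0.17 in pTKO lung, -0.0336 to 0.00892 in E18.5 pIR heart and -0.0317 to 0.0842 in P1 kidney. Gpc3 ran from 1.76 to 2.08 in STOP against WT, -0.176 to 0.304 in STOP against TKO, -0.0399 to 0.119 in pTKO heart, -0.0745 to 0.0789 in pTKO kidney, -0.354 to 0.0832 in pTKO liver, 0.0294 to 0.428 in pTKO lung, -0.0641 to 0.0971 in E18.5 pIR liver, -0.115 to 0.0708 in P1 kidney and 0.435 to 0.681 in P1 lung. Among differences of pIR changes, Igf2r ran from -0.157 to 0.344 for blastocyst minus morula, -0.0784 to 0.0718 for E18.5 heart minus liver and -0.079 to 0.0614 for P1 heart minus kidney, Grb10 from -0.001 to 0.0915 for E18.5 heart minus liver and Gpc3 from -0.214 to 0.41 for P1 heart minus lung. Among pWT pairs, Grb10 ran from -0.0813 to 0.488 for blastocyst against morula, -0.575 to 0.0327 for E18.5 heart against liver, -0.0431 to 0.167 for E18.5 kidney against lung and -0.0409 to 0.138 for P1 kidney against liver, and Igf2r from -0.0726 to 0.629 for E18.5 kidney against liver.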
